A study of Mus musculus with 2 samples.

Results

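The cell cycle genes described here are 34 named genes out of 26981 listed in the files, read in 25198 cells. They comprise 22 genes that peak when a cell divides (called mitotic genes), 11 genes of DNA synthesis (called S genes) and Stmn1, which encodes the tubulin-binding protein stathmin and was placed in neither set. The members were chosen by symbol as known cell cycle genes, and all 34 were found. The cells are a fraction of visceral adipose tissue selected for the immune cell protein CD45, from wild-type C57BL/6 mice aged 15 weeks. Not all are immune cells, since 792 were classed below as endothelial-like and 104 as fibroblast-like. One library came from mice on normal water (NW) and one from mice given antibiotics in the drinking water (ABX), by the study's methods ampicillin, streptomycin, colistin and vancomycin, a mixture used to deplete gut bacteria. The tissue was labelled eWAT, and how many mice each library pooled was not given in the sources used here. With 1 library per condition no difference between NW and ABX has a replicate check, the condition and the library cannot be told apart, and every 95% interval below covers counting error only. The libraries shared 371 cell index numbers, none with identical counts.

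A dividing cell first copies its DNA in S phase and then separates the copies in mitosis. The Mcm2 to Mcm7 proteins form the helicase that opens the DNA, Pcna clamps the polymerase to it, and Rrm1, Rrm2, Tyms and Tk1 supply nucleotides. Mitosis is driven by the kinase Cdk1 with its cyclins Ccna2, Ccnb1 and Ccnb2, assisted by the kinases Aurka, Aurkb and Plk1. Cenpa, Cenpe and Cenpf act at centromeres and kinetochores, Kif11, Kif20a, Tpx2, Nusap1 and Hmmr at the spindle, and Bub1 and Bub1b in the checkpoint that holds back separation. Cdc20 and Ube2c then mark the cyclins for destruction. Mki67 coats mitotic chromosomes and Top2a untangles them. Macrophages and dendritic cells (DCs) of adipose tissue are known to be renewed in part by local division or by progenitors that still divide.

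The upstream sequences of 6 members are shown as examples of promoters with short motifs, which many but not all members hold. Each line gives 150 bases before the RefSeq start on the gene's own strand, in build GRCm38.p6, with capitals for matches on either strand to TTTGAA (a cell cycle homology region), CCAAT, or the E2F-type words TTCCCGC and TTGGCGC.
Cdk1, chr10:69352913-69353062, minus strand: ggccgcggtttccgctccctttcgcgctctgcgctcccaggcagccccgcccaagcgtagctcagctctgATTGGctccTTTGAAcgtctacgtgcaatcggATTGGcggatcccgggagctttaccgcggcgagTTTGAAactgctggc
Cdc20, chr4:118437344-118437493, minus strand: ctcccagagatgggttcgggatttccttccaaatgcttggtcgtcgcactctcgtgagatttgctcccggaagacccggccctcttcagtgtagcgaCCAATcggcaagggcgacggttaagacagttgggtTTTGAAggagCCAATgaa
Kif11, chr19:37376232-37376381, plus strand: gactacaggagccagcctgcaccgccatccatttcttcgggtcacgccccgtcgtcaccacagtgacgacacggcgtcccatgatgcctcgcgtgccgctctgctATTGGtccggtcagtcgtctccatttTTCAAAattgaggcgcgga
Mki67, chr7:135716380-135716529, minus strand: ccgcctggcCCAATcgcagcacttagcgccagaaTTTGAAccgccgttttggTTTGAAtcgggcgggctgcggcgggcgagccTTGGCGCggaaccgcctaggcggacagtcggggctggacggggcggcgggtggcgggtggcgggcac
Mcm5, chr8:75109359-75109508, plus strand: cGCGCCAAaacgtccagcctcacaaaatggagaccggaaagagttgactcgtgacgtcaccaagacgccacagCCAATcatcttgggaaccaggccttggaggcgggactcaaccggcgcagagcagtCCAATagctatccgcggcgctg
Mcm6, chr1:128359706-128359855, minus strand: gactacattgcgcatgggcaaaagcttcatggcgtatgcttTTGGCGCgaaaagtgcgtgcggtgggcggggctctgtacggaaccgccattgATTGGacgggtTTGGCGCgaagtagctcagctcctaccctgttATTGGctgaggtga
The Cdk1 window holds TTTGAA beginning 71 and 15 bases before the start, and the Mcm6 window holds TTGGCGC beginning 109 and 46 bases before it.

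Over 300 bases around the start (250 before and 50 after), 28 members had a RefSeq entry, and Aurkb, Ccna2, Kif20a, Mcm4, Stmn1 and Tpx2 had none. TTTGAA lay in 13 of 18 mitotic promoters, in 1 of 10 S promoters (Mcm2), and in 17.9% of all 32851 promoters. CCAAT lay in 16 of 18 mitotic and 8 of 10 S promoters, against 37.4% of all. One of the E2F-type words lay in 5 of 10 S promoters (Mcm3, Mcm5, Mcm6, Mcm7 and Rrm1), in 3 of 18 mitotic promoters (Ccnb1, Cdk1 and Mki67), and in 6.81% of all. A match describes the letters only, and no factor was measured on these promoters.

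The mitotic genes were concentrated in a small number of cells. Of 25198 cells, 14633 had no UMI (a counted RNA molecule) of any of the 22 mitotic genes, and 9563 had UMIs of 1 or 2 of them. The number of cells then fell to 20 at 8 genes and rose again to 51 at all 22 genes. Cells with UMIs of at least 8 mitotic genes, 491 in all or 1.95% (1.78 to 2.13), are called mitotic-high. The limit of 8 was set after the distribution was seen, at its lowest point. Cells with at least 3 of the genes are called mitotic-positive, and there were 1002 of them.

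**Figure D1:**
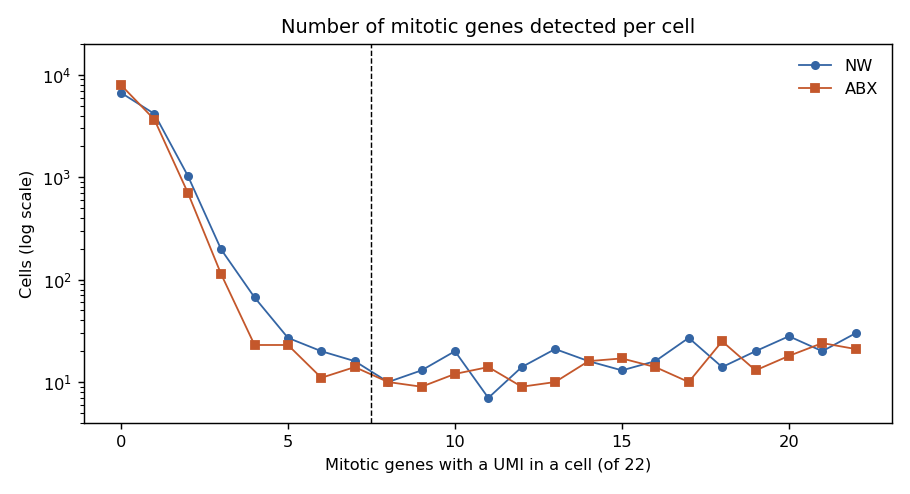
Number of cells (log scale) against the number of the 22 mitotic genes with a UMI in a cell, for the NW library (circles) and the ABX library (squares). Both libraries fell steeply from 0 to 8 genes and then held a second population up to 22 genes, and the dashed line marks the lower limit of the mitotic-high cells.

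These 491 cells held 71.8% of all mitotic-gene UMIs. Mki67 (chr7:135689784-135716361), the usual proliferation marker, had a UMI in 99.2% of mitotic-high cells and 4.53% of the other cells. Hmmr, a spindle protein, was the most concentrated member, with 95% of its UMIs in mitotic-high cells. Ccnb1, Nusap1, Bub1 and Cenpf each had over 90% of their UMIs there, and 20 of the 22 mitotic genes had more than 69% there. Because the mitotic genes themselves chose the cells, these shares describe the cells and test nothing.

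Cenpa (chr5:30666777-30674830), the centromeric histone H3 variant, and the checkpoint kinase Bub1b were the exceptions among the mitotic genes. Only 19.1% of Cenpa UMIs were in mitotic-high cells, and 25.3% of the other cells had a Cenpa UMI. Outside the mitotic-high cells Cenpa stood at 122 UMIs per 1000000 gene UMIs (CPM) in macrophage-like cells and 120 CPM in B precursor-like cells. It stood at 28.0 CPM in DC-like cells and 26.9 CPM in plasma cell-like cells, the lowest class. In neutrophil-like cells it had 12 UMIs in NW and 4 in ABX over 115 cells, and how much of its signal outside mitotic-high cells was free RNA was not tested. It was also the gene behind most cells with few mitotic genes, since 61.9% of cells with 1 or 2 of them had Cenpa. Bub1b had 53.8% of its UMIs in mitotic-high cells. Its level outside them was highest in B precursor-like cells (15.0 CPM, from 4 UMIs) and next in plasma cell-like cells (6.29 CPM). It was 4.47 CPM in macrophage-like cells and 2.37 CPM in DC-like cells.

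The S genes were spread far more widely than the mitotic genes. Pcna (chr2:132249162-132253314), the polymerase clamp, had a UMI in 31.3% of the cells that were not mitotic-high, and only 11.4% of its UMIs were in mitotic-high cells. The 6 Mcm genes placed between 14.7% (Mcm6) and 34.2% (Mcm5) of their UMIs there. Rrm2 (chr12:24708241-24714146), the regulated subunit of ribonucleotide reductase, was the S gene nearest to the mitotic genes, with 78.7% of its UMIs in mitotic-high cells, against 28.6% for its partner subunit Rrm1. Tk1, thymidine kinase, had 50.2%. Outside mitotic-high cells Tk1 was highest in plasma cell-like cells (24.8 CPM, a UMI in 22.3% of them) and next in B cell-like cells (18.4 CPM), whereas macrophage-like cells had 1.61 CPM. Stmn1 had a UMI in 94.1% of mitotic-high cells and 6.77% of the others, and 66.2% of its UMIs were in mitotic-high cells.

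**Figure D2:**
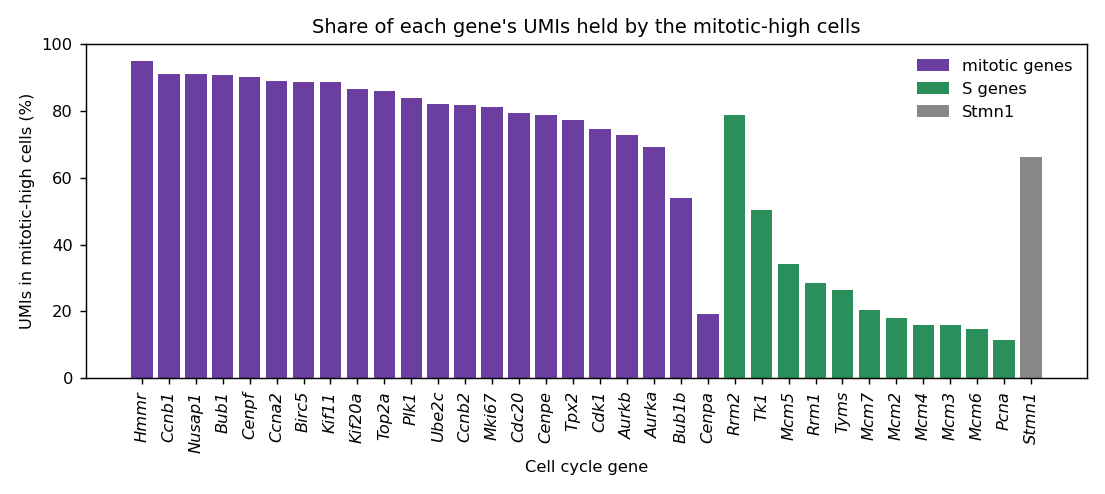
Share (%) of each gene's UMIs, over both libraries, that lay in the 491 mitotic-high cells, with mitotic genes in purple, S genes in green and Stmn1 in grey. Mitotic genes other than Cenpa and Bub1b stood above 69%, and S genes other than Rrm2 stood at or below 50.2%.

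Cell classes were then compared. The cells were clustered without the 34 members and a further 196 cell cycle genes, so that dividing cells could join their own lineage, and 17 classes were named from marker genes, 101 of whose 140 markers were highest in their own class. The classes are called "like" because they rest on these markers. Before the values, 2 facts limit them. First, 1 DC-like cluster of 806 cells was still led by Top2a, Ube2c and Birc5 besides Cd209a, and it held 151 of the 161 mitotic-high DC-like cells. Second, the 71 mitotic-high cells of the monocyte-like class held its markers unevenly. Fn1 was at 42.4 CPM in them against 1451 CPM in cells of that class without mitotic genes. Chil3, Hp and Ace were at 0, but had a UMI in only 5.79%, 5.79% and 6.61% of those other cells. Ccr2 had a UMI in 57.7% against 39.4% (349 against 581 CPM). Plac8 had one in 23.9% against 8.33% (172 against 153 CPM). C1qa, a macrophage marker, had a UMI in 66.2% of these 71 cells. Its level was 528 CPM in them and 587 CPM in cells of the class without mitotic genes. The lineage of these 71 cells was not settled. They are therefore called the mitotic-high cells of the monocyte-like cluster and are not named dividing monocytes.

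Mitotic-high cells in most other classes had UMIs of markers of their class. C1qa had a UMI in 91.9% of 86 mitotic-high macrophage-like cells and in 37.9% of 161 DC-like ones. The second value stands for a class that C1qa does not define, and free RNA can add to both. Flt3, the receptor of the DC lineage, had a UMI in 83.2% of DC-like and 9.30% of macrophage-like mitotic-high cells. Cd3e, part of the T cell receptor complex, had one in 82.9% of 41 activated CD4 T-like cells. Jchain had one in 100% of 27 plasma cell-like cells, but also in 65% of ILC2-like and 29.6% of B precursor-like mitotic-high cells, and in plasma cell-like cells it was at 11414 CPM in mitotic-high cells against 41329 CPM in those without mitotic genes. Tnfrsf17, another plasma cell marker, had a UMI in 25.9% against 40.7%. Igha, Sdc1 and Prdm1 were also lower in CPM. Mzb1, Xbp1 and Derl3 went the other way, at 3437 against 1414, 2081 against 1491 and 445 against 347 CPM. Vpreb3 had a UMI in 100% of 27 B precursor-like mitotic-high cells and in 0% of DC-like ones, whereas Rag1, of the recombinase, had one in 40.7% of the B precursor-like mitotic-high cells against 83.3% of the 12 without mitotic genes (191 against 1178 CPM). Macrophage-like mitotic-high cells had the 9 B cell markers at 645 CPM in sum against 79.6 CPM in cells of the class with no mitotic gene, and the 8 plasma cell markers at 1307 against 319 CPM. Cd79a, which B cells use for signalling, had a UMI in 18.6% of them, and whether they hold mixed barcodes was not tested beyond a doublet score that marked 3 of the 86.

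The share of mitotic-high cells differed widely between classes. B precursor-like cells, which carry the surrogate light chain genes Vpreb1 and Igll1, had the highest share, 27 of 78 cells or 34.6% (24.2 to 46.2). Plasma cell-like cells had 6.08% (4.05 to 8.72) and DC-like cells 5.33% (4.56 to 6.19). The monocyte-like cluster class had 4.66% (3.66 to 5.84) and activated CD4 T-like cells 3.51% (2.53 to 4.73). Macrophage-like cells, by far the most numerous class, had 0.793% (0.635 to 0.978), so that 43.0% of all cells supplied 17.5% of the mitotic-high cells, while DC-like cells supplied 32.8%. These class shares depend on the clustering. The number of DC-like cells among the 491 was 161 here, 90 with 50 principal components and 346 with cell cycle genes kept, and the number of macrophage-like cells ran from 31 to 120 over the 5 other clusterings. With 50 components 29 of the 161 kept the DC name, and the cluster with the most mitotic-high cells, 131, was led by Klra1, Klra7 and Top2a and was named NKT-like. With RNA alone none of the 41 activated CD4 T-like cells kept that name, whereas all 27 B precursor-like cells kept theirs in 4 of the 5 other clusterings and 23 did in the fifth.

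Most other lymphoid classes had low shares. ILC2-like cells (group 2 innate lymphoid cells) had 20 mitotic-high cells of 2044, or 0.978% (0.599 to 1.51). NKT-like cells had 0.346%, gdT-like cells 0.564%, NK-like cells 0.839% and CD8 T-like cells 1.08%, each from 6 cells or fewer. Treg-like cells had 9 of 582, or 1.55% (0.709 to 2.92). The 2 classes taken as background were neutrophil-like and resting CD4 T-like cells. Neutrophil-like cells, a type that no longer divides, had 0 of 115, or 0% (0 to 3.16). Resting CD4 T-like cells had 4 of 216, or 1.85% (0.507 to 4.67). The median depth of these 2 classes was 1671 and 3477 UMIs per cell. The resting CD4 T-like share rests on 4 cells. The shares of ILC2-, NK-, NKT-, gdT-, CD8 T- and Treg-like cells were all lower than it, their intervals overlapped its wide interval, and the upper limits of NKT-like (1.01%), ILC2-like (1.51%), gdT-like (1.64%) and NK-like cells (1.82%) lay below 1.85%.

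Depth differed between classes and between the libraries, so that shares were also computed with each cell thinned to 1000 UMIs, at 3 or more mitotic genes. DC-like cells then had 5.19% in NW and 5.10% in ABX, and macrophage-like cells 1.05% and 0.681%. Within a class, mitotic-high cells had more UMIs than cells without any mitotic gene: a median of 6932 against 3919.5 in macrophage-like cells and 10932 against 7141 in DC-like cells. In the monocyte-like cluster class the gap was larger, 9324 against 1641. A deeper cell shows more genes, and the part of depth in the choice of these cells was not tested.

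**Figure D3:**
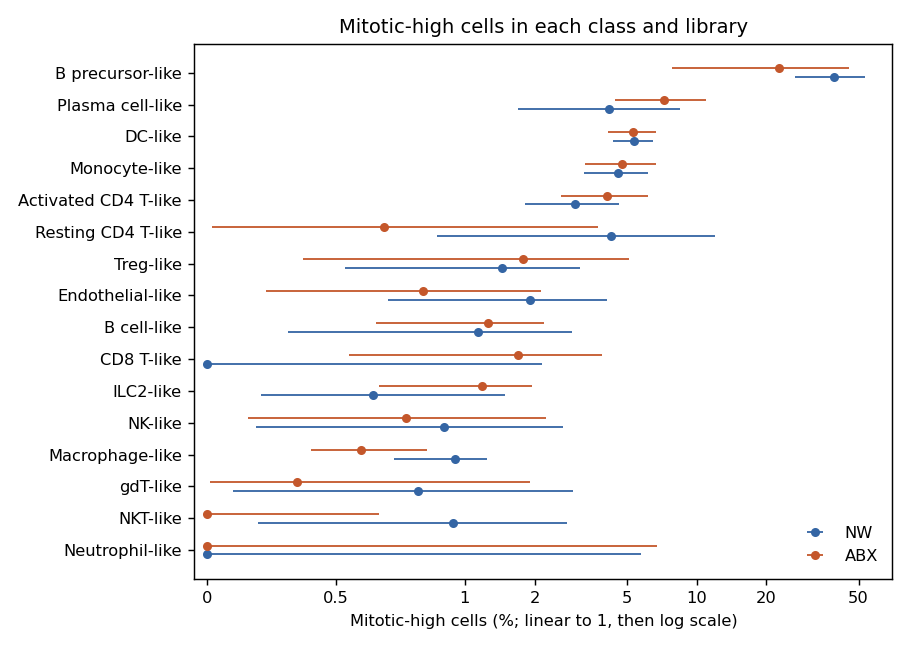
Share (%) of mitotic-high cells in each class with at least 50 NW and 20 ABX cells (axis linear to 1 and log above), with exact 95% binomial intervals, for NW (blue) and ABX (orange). B precursor-like cells stood highest in both libraries, DC-like cells lay at 5.35% and 5.30%, and macrophage-like cells lay at 0.961% and 0.598%.

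Within the classes mitotic-high cells were unevenly spread as well. Among DC-like cells the cluster led by Top2a and Ube2c had 151 mitotic-high cells of 806, a share that describes the clustering, since genes of dividing cells led it. The Xcr1 and Clec9a cluster of 1860 cells had 8 and the Ccr7 and Fscn1 cluster of 255 cells had 2. Over all mitotic-high DC-like cells Cd209a had a UMI in 27.3%, Xcr1 in 58.4% and Clec9a in 70.2%, against 19.5%, 55.8% and 65.3% in DC-like cells without mitotic genes. The mitotic-high cells were deeper, and in CPM all of these genes were lower in them. Cd209a was at 171 against 179 CPM, Xcr1 at 280 against 317 CPM and Clec9a at 260 against 431 CPM. Cadm1, another marker of the class, had a UMI in 49.7% against 58.1% (216 against 442 CPM). Fscn1 and Ccl22, genes of mature migrating DCs, were at 22.1 and 2.70 CPM in mitotic-high cells against 505 and 296 CPM in the others. Among macrophage-like cells the shares of the 4 clusters ran from 0.406% to 0.946% and their intervals overlapped. The mitotic-high macrophage-like cells had Lyve1 at 174 CPM against 1096 CPM and Folr2 at 398 against 1267 CPM in cells without mitotic genes, while all 11 macrophage markers in sum were at 12581 against 22131 CPM. Naive B cell-like cells of the Ighd and Fcer2a cluster had 1 mitotic-high cell of 688, and the other B cell-like cluster had 15 of 611. Their median depths were 2586 and 6170 UMIs per cell, and the part of depth was not tested.

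The S genes divided the mitotic-high cells. Of the 491 cells, 220 had UMIs of at least 6 of the 11 S genes (S-rich), 157 had at most 2 (S-poor) and 114 lay between. S-rich cells were deeper, with a median of 12574 UMIs against 6175 in S-poor cells, but both showed most mitotic genes, a median of 17 and 15. S-positive cells, with at least 4 S genes, made up 60.9% of mitotic-high cells and 1.41% of cells without mitotic genes. Only 79 cells had 6 or more S genes with fewer than 3 mitotic genes, and 35 of these were DC-like.

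The mitotic genes were then ordered by their level in S-poor against S-rich cells. They had chosen the mitotic-high cells to which both groups belong, and S-poor cells were the less deep, so that a cell needed a higher mitotic CPM to show 8 of the genes. The ratios are therefore a description, to be read against each other and not against 0. Cenpf, Cdc20, Ccnb2, Cenpe and Ube2c were the highest in S-poor cells. Cenpf, which assembles on kinetochores late in the cycle, was at 225 CPM in S-rich and 947 CPM in S-poor cells, a log2 ratio of 2.07 (1.94 to 2.21). Cdc20 went from 111 to 368 CPM (log2 ratio 1.73, 1.52 to 1.93) and Ccnb2 from 177 to 582 CPM (1.72, 1.55 to 1.88). Ube2c, the ubiquitin-conjugating enzyme that works with Cdc20, went from 415 to 1275 CPM (1.62, 1.51 to 1.73). These intervals treat each UMI as independent, although UMIs of 1 cell are not.

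Top2a, Aurkb and Bub1 stood at the other end of the mitotic genes. Top2a was at 1590 CPM in S-rich and 1252 CPM in S-poor cells, a log2 ratio of -0.34 (-0.43 to -0.26) and the lowest of the mitotic genes. Aurkb was at 182 and 156 CPM and Bub1 at 106 and 99.4 CPM. Mki67 went from 1363 to 2038 CPM (0.58, 0.51 to 0.65), and Ccna2, the cyclin shared by S phase and mitosis, from 399 to 508 CPM (0.35, 0.21 to 0.49). Stmn1 lay between the sets at 1076 and 501 CPM (log2 interval -1.23 to -0.98). The S genes were lower in S-poor cells by construction. Among them Mcm3 differed most, with 576 UMIs in S-rich and 4 in S-poor cells, and Rrm1 least, at 252 and 45.1 CPM.

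**Figure D4:**
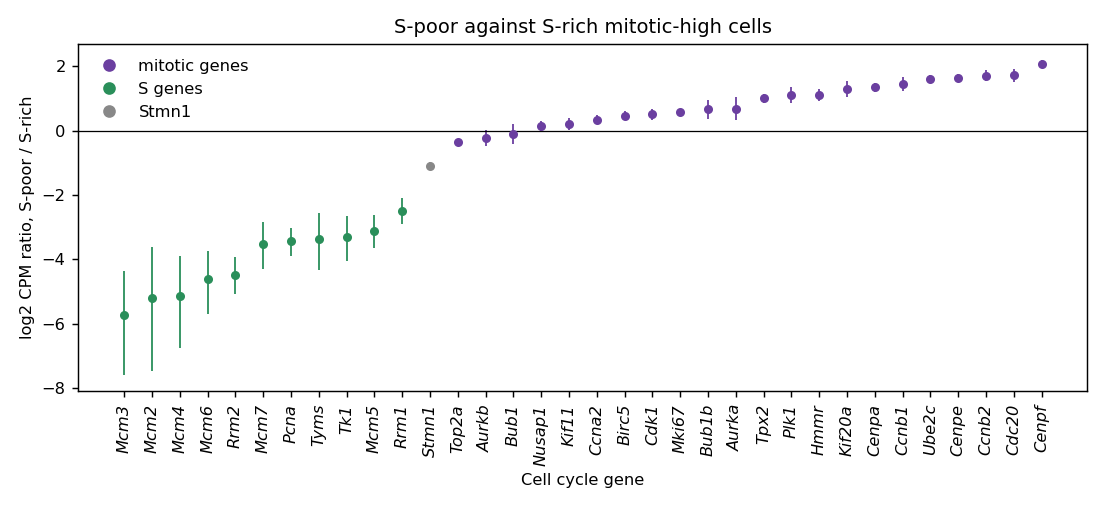
Log2 ratio of CPM in the 157 S-poor over the 220 S-rich mitotic-high cells for each gene, with 95% Poisson-rate intervals. The S genes (green) chose the cells, and the mitotic genes (purple) ran from -0.34 for Top2a to 2.07 for Cenpf.

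The mix of S-rich and S-poor cells was not the same in every class. S-rich cells made up 27.9% (18.8 to 38.6) of mitotic-high macrophage-like cells and 46.6% (38.7 to 54.6) of DC-like ones, and these intervals did not overlap. ILC2-like cells had 13 of 20 S-rich, B cell-like cells 11 of 16, B precursor-like cells 16 of 27 and plasma cell-like cells 15 of 27. With cells thinned to 2000 UMIs, those with fewer left out, and a limit of 3 S genes, macrophage-like cells had 18.5% in NW and 25.4% in ABX. DC-like cells had 27.5% and 35.8%. The intervals of the thinned shares of these classes overlapped in each library.

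NW and ABX were compared next. The NW library had 12474 cells at a median of 5092 UMIs and the ABX library 12724 cells at a median of 3845.5 UMIs. Mitotic-high cells numbered 269 in NW, or 2.16% (1.91 to 2.43), and 222 in ABX, or 1.74% (1.52 to 1.99). After thinning to 1000 UMIs the mitotic-positive share was 2.17% (NW) and 1.74% (ABX), and the log10 of the ABX to NW ratio was -0.10 (-0.17 to -0.02). Without thinning the shares were 4.78% and 3.19%. With a mitochondrial limit of 10% the log10 ratio was -0.04 (-0.13 to 0.05), with 5 mitotic genes -0.09 (-0.18 to 0.01) and with 8 of them -0.12 (-0.26 to 0.02), so that the interval took in 0 under each of these settings. With the make-up of classes held at that of NW, the thinned shares were 2.18% and 2.02% and the log10 ratio was -0.03, without an interval. Class sizes can themselves depend on dividing cells. The DC-like class holds the cluster led by Top2a and Ube2c, with 460 NW and 346 ABX cells. The part of class make-up in the lower ABX share was therefore not tested.

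Of the 10 classes compared, only macrophage-like cells had an interval of the thinned ratio that left out 0. Their mitotic-positive share was 1.05% in NW and 0.681% in ABX (log10 ratio -0.19, -0.37 to -0.01), and their mitotic-high share was 0.961% and 0.598% (56 and 30 cells). The interval took in 0 under several other settings: a mitochondrial limit of 10% gave -0.08 (-0.31 to 0.14), 2 mitotic genes -0.11 (-0.23 to 0.02), 5 genes -0.18 (-0.41 to 0.05), 8 genes -0.16 (-0.52 to 0.20), a clustering resolution of 1 -0.18 (-0.37 to 0.01) and leaving out Cenpa -0.19 (-0.37 to 0.002). The direction turned when the cell cycle genes were kept in the clustering, which gave 0.18 (-0.10 to 0.46), and 11 of the 86 mitotic-high macrophage-like cells stayed in the class there. DC-like cells were close to equal, with 93 of 1739 cells (5.35%) in NW and 68 of 1282 (5.30%) in ABX mitotic-high, and a thinned log10 ratio of -0.01 (-0.14 to 0.13).

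Other classes held too few dividing cells for a narrow comparison. Activated CD4 T-like cells had 19 of 633 mitotic-high cells in NW and 22 of 535 in ABX (thinned log10 ratio 0.16, -0.11 to 0.43), and plasma cell-like cells 7 of 167 and 20 of 277 (0.22, -0.21 to 0.65). Treg-like cells had 6 of 414 in NW and 3 of 168 in ABX (0.02, -0.61 to 0.64). ILC2-like cells had 5 of 779 and 15 of 1265 (0.13, -0.29 to 0.55). The B precursor-like class, with 56 NW and 22 ABX cells, was not compared. At this depth differences of the size these intervals allow were not detectable.

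Summed over all cells, the 22 mitotic genes were at 512 CPM in NW and 503 CPM in ABX, a log2 ratio of -0.03 (-0.05 to -0.004). This small difference changed sign when Cenpa was left out (0.01), when the scale left out mitochondrial and ribosomal protein genes (0.01) and when cells above 10% mitochondrial UMIs were left out (0.08). The 11 S genes were at 289 CPM in NW and 316 CPM in ABX, a log2 ratio of 0.13 (0.10 to 0.16). The S-to-mitotic UMI ratio was 0.56 in NW and 0.63 in ABX, a log2 odds ratio of 0.15 (0.12 to 0.19).

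No single member passed a 1.5-fold difference with an interval excluding equality in all cells. The background for that count is that 2.4% of 14505 genes with at least 50 UMIs were lower and 12.9% were higher in ABX by the same rule, and the median log2 ratio of those genes was 0.07. The median was 0.02 over the 22 mitotic genes and 0.18 over the 11 S genes, 10 of which lay above 0. Rrm2 showed the highest ratio, from 13.6 CPM in NW to 18.4 CPM in ABX (0.44, 0.32 to 0.57), followed by Mcm7 (20.6 and 26.1 CPM, 0.34, 0.24 to 0.44) and Bub1b (6.65 and 8.28 CPM, 0.32, 0.13 to 0.50). Ube2c showed the lowest, from 38.1 to 31.6 CPM (-0.27, -0.35 to -0.18), followed by Ccnb2 (16.4 and 13.8 CPM, -0.25, -0.38 to -0.12) and Cenpa (95.9 and 84.2 CPM, -0.19, -0.24 to -0.14). Rrm2 and Mcm7 were the 2 members past a lower limit, a ratio of 5 to 4, with an interval excluding equality. Mki67 was at 76.9 and 84.1 CPM, and Pcna at 94.9 and 95.2 CPM.

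Within mitotic-high cells alone the balance of the sets moved the same way. Mitotic genes were at 9391 CPM in NW and 8452 CPM in ABX (log2 ratio -0.15, -0.18 to -0.13), and S genes at 1482 and 1737 CPM (0.23, 0.17 to 0.29). S-rich cells numbered 109 of 269 in NW, or 40.5% (34.6 to 46.7), and 111 of 222 in ABX, or 50% (43.2 to 56.8). S-poor cells numbered 100 in NW and 57 in ABX, or 37.2% (31.4 to 43.2) and 25.7% (20.1 to 31.9), a log10 ratio of -0.16 (-0.28 to -0.04). The order of genes by S-poor cells came from these same cells, so the next values can follow from that mix and are no separate result. Of the genes highest in S-poor cells, Ube2c was at 788 CPM in NW and 618 CPM in ABX, Cenpf at 512 and 410 CPM and Ccnb2 at 338 and 272 CPM. Cdc20 was not lower in ABX, at 198 and 207 CPM. Plk1 (120 and 131 CPM), Tpx2 (363 and 381 CPM) and Aurka (61.2 and 66.4 CPM), also higher in S-poor cells, were not lower either. The depth of mitotic-high cells was similar, a median of 9460 UMIs in NW and 10226 in ABX. Thinned to 2000 UMIs, 268 mitotic-high cells in NW and 214 in ABX remained, since those with fewer UMIs were left out. Cells with at least 3 S genes made up 31.0% of them in NW and 38.8% in ABX, and the interval of the log10 ratio included 0 (0.10, -0.01 to 0.20).

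By class the S-poor share was lower in ABX in macrophage-like cells (27 of 56 in NW and 9 of 30 in ABX), DC-like cells (32 of 93 and 17 of 68), activated CD4 T-like cells (10 of 19 and 6 of 22) and plasma cell-like cells (3 of 7 and 2 of 20). It was not lower in the monocyte-like cluster class (12 of 39 and 11 of 32). In each of these classes the interval of the ratio included 0. The make-up of the mitotic-high cells by class also differed between the libraries, with 56 and 30 macrophage-like, 22 and 5 B precursor-like and 7 and 20 plasma cell-like cells.

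**Figure D5:**
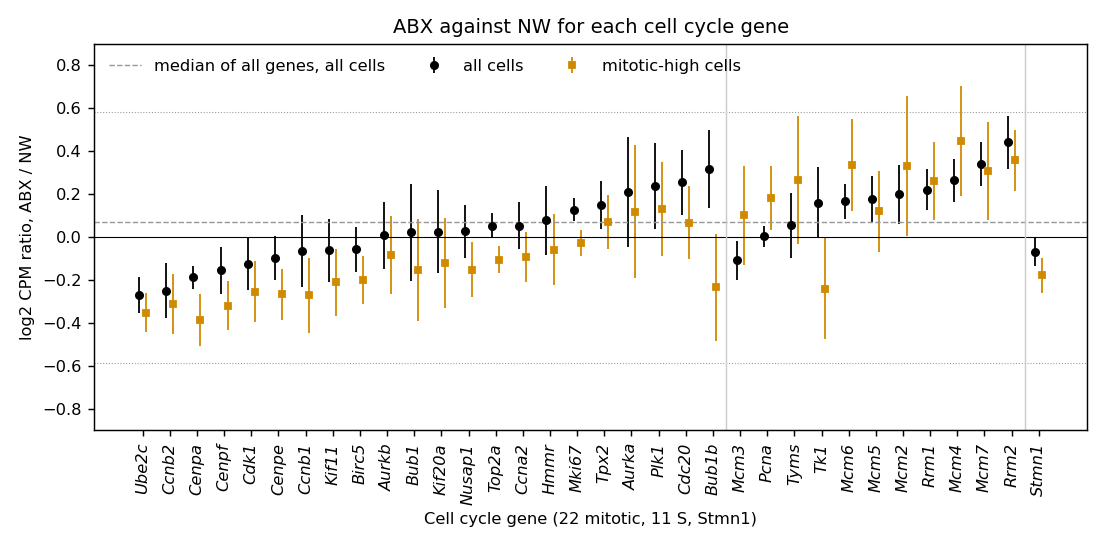
Log2 ratio of CPM in ABX over NW for each gene, over all cells (black circles) and within mitotic-high cells (orange squares), with 95% Poisson-rate intervals; the dashed line is the median of all genes with at least 50 UMIs over all cells (0.07) and the dotted lines mark 1.5-fold. No gene passed 1.5-fold, and 10 of 11 S genes lay above 0 over all cells.

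Members were counted singly in the macrophage-, DC- and monocyte-like classes only. In DC-like cells 1 of 34 members, Rrm2, was called higher in ABX and 0 lower, against 2.52% of genes higher and 2.35% lower in the background of that class. In macrophage-like cells Bub1b, Plk1 and Rrm2 were called higher and 0 lower, against 6.06% and 1.62%. In the monocyte-like cluster class 17 of 34 members were called higher, 11 mitotic and 6 S, against 6.1% of genes higher and 4.6% lower. The summed mitotic genes there were at 1042 CPM in NW and 1633 CPM in ABX. The share of mitotic-high cells in that class was nevertheless 4.57% in NW and 4.78% in ABX, and they took 10.2% of the class's UMIs in NW and 18.1% in ABX. The CPM of the class and its share of mitotic-high cells thus did not move together. The class had a median of 2688 UMIs per cell in NW and 1740.5 in ABX, and the part of depth in this was not tested. No count was made in the other classes, some of which also held members with large ratios, in both directions. In endothelial-like cells Ube2c was at 31.6 CPM in NW and 2.71 CPM in ABX (log2 ratio -3.54, -4.91 to -2.41). In NKT-like cells Mki67 was at 44.8 and 8.04 CPM (-2.48, -3.39 to -1.64). Those classes had 6 and 4, and 3 and 0, mitotic-high cells in NW and ABX. In activated CD4 T-like cells Ccnb1 was at 8.69 CPM in NW and 36.2 CPM in ABX (log2 ratio 2.06, 1.41 to 2.76). Mki67 was at 150 and 233 CPM there (0.63, 0.45 to 0.82), and only Mcm6 had a lower CPM in ABX (61.5 and 57.0). Mitotic-high cells took 5.57% of the UMIs of that class in NW and 11.4% in ABX.

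The other 196 cell cycle genes were read in the same way, in 7 lists. In mitotic-high cells they were compared with the level expected from cells of the same class and library with no mitotic gene. By that measure 7.3% of 14505 genes with at least 50 UMIs were at least 2-fold higher, with a median log2 ratio of -0.10 over these genes. Among spindle, kinesin and kinetochore genes 49 of 50 were at least 2-fold higher, as were 28 of 29 mitotic kinase, phosphatase and checkpoint genes and 39 of 43 licensing and replication genes. The kinetochore gene Spc24 had 1057 UMIs against 4.95 expected. Cenpx, with the most UMIs of its list, was the 1 gene of the 50 below the limit, at 1.82-fold. Pclaf, which binds Pcna, had 3075 UMIs against 10.6 expected.

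In the lists of G1 cyclins and kinases, CDK inhibitors and transcription regulators the counts were lower. Of 8 G1 cyclins and kinases 3 were at least 2-fold higher in mitotic-high cells, led by Ccne2 at 13.2-fold and Ccne1 at 9.76-fold, while Ccnd1 was at 0.642-fold and Ccnd2 at 0.940-fold. Of 8 CDK inhibitors 4 were higher, among them Cdkn3 at 195-fold and Cdkn2c at 10.1-fold, while Cdkn1b, which encodes p27, stayed at 1.14-fold. Of 19 E2F, Rb, DREAM, FoxM1 and Myb regulators 10 were higher, with E2f1 at 5.39-fold, E2f8 at 49.5-fold and Foxm1 at 46.1-fold, and the quiescence partner Rbl2 at 0.942-fold. Among chromatin and tubulin genes 34 of 37 with at least 50 UMIs were higher, and Tubb5, with the most UMIs, was at 9.60-fold.

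Between the libraries few of the other cell cycle genes passed 1.5-fold, 3 higher and 1 lower in ABX, and the background of 12.9% and 2.4% applies here as well. Ccnd2 (cyclin D2) was higher, at 210 CPM in NW and 328 CPM in ABX (log2 ratio 0.64, 0.61 to 0.68), as were Mycn (1.52 and 2.62 CPM, 0.79, 0.43 to 1.15) and the uracil glycosylase gene Ung (3.03 and 5.27 CPM, 0.80, 0.55 to 1.05). Cdkn2b, which encodes p15, was lower, at 1.64 and 0.773 CPM (-1.08, -1.60 to -0.58). The medians of the lists lay between 0.01 for the spindle list and 0.22 for the licensing and the G1 lists. Among genes with at least 200 UMIs, the ends of the lists were Ccnd1 (-0.09) and Ccnd2 for the G1 list, Cdkn2a (-0.39) and Cdkn1c (0.40) for the inhibitors, and E2f1 (-0.50) and Mycn for the regulators. They were Gins1 (-0.15) and Ung for replication, Wee1 (-0.36) and Cdca2 (0.47) for mitotic kinases, Ect2 (-0.40) and Spc24 (0.35) for the spindle, and Hist1h2bc (-0.43) and Hist1h4d (0.53) for chromatin. The genes with the most UMIs had log2 ratios of 0.21 (Cdkn1b), 0.19 (Rbl2), 0.15 (Usp1), 0.04 (Bub3), 0.04 (Cenpx) and -0.10 (Tubb5).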

How the data were processed

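Counts of molecules per cell and gene were deposited by the authors, made with the BD Rhapsody pipeline (version 1.8, build GRCm38) as whole UMIs with sequencing errors removed, together with counts of 10 antibodies. R 3.6.0 and Seurat 3.0.1 are named in the submitters' processing notes. Here, barcodes with at least 500 gene UMIs, 200 genes and at most 25% mitochondrial UMIs were kept, 12474 of 17662 in NW and 12724 of 17785 in ABX. Cells were clustered in Seurat 5.3.0 (R 4.3.3) on 2000 variable genes, without the 34 members and 196 other cell cycle genes, and 8 antibodies (30 components, resolution 0.6). Clusters were named from marker genes and 387 cells stayed unnamed.

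With 1 library per condition no test between conditions was made. Shares have exact Clopper-Pearson intervals and rates have Poisson-rate intervals at 95%. UMIs of 1 cell are not independent, so intervals of CPM are narrower than the spread between cells. Differences were called at 1.5-fold with at least 50 UMIs and an interval excluding equality. Doublets were kept: Scrublet marked 344 NW cells and 1 ABX cell, so that it had not worked on ABX. All members were named, with the most abundant, highest and lowest gene of each other list, and the 10 outside genes most raised in mitotic-positive cells. Further examples from the lists, and the marker genes given, were picked with their values in view. Members and lists were chosen with earlier results of these data known. The scripts were tested on simulated data.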

Additional observations from a re-analysis of the deposited data

Results flagged for a closer look

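Mitotic-high cells also appeared among the barcodes that the limits on UMIs, genes and mitochondrial share had removed, which no comparison uses. In NW 17 of 5188 removed barcodes, or 0.3277% (0.191 to 0.524), had UMIs of at least 8 mitotic genes, and in ABX 4 of 5061, or 0.07904% (0.0215 to 0.202). By a rule of 3 counts over the removed barcodes, a count of 0 would allow 0.0578% in NW and 0.0593% in ABX. The ABX value rests on 4 barcodes with an interval that includes its limit. These barcodes had a median of 3031 and 1984 UMIs and a median mitochondrial share of 32.2% and 43.8%.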

How the results depend on the processing

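Of 164 alternative values, 148 stayed within the interval of the reported value, 12 moved beyond it and 4 reversed. For the log10 ratio of mitotic-positive shares (ABX over NW), no thinning gave -0.1753 over all cells. The interval took in 0 over all cells with a 10% mitochondrial limit, 5 genes or 8 genes, and in macrophage-like cells with those settings, 2 genes, resolution 1 or without Cenpa. In macrophage-like cells, keeping cell cycle genes in the clustering gave 0.1779, and 11 of the 86 mitotic-high cells kept that name there. A limit of 8 genes in thinned cells, added after seeing the data, gave -0.1743 in DC-like and 0.4435 in activated CD4 T-like cells, and a mitochondrial limit of 10% gave 0.1309 in endothelial-like cells, against -0.482. For the log2 ratio of mitotic-gene CPM (-0.02578), a scale without mitochondrial and ribosomal protein genes gave 0.01267, the 10% limit 0.07738, leaving out Cenpa (added later) 0.009117 and the mean of the cells' own CPM -0.2489. For S genes (0.127) the same scale gave 0.1654, the 10% limit 0.1726 and the mean of cells 0.05272. For the S-to-mitotic ratio (0.1528), Rrm2, Tyms and Tk1 alone gave 0.2808, the 10% limit 0.0952 and mitotic-high cells (added later) 0.3811. The lower fold limit, a ratio of 5 to 4, called 2 members in place of 0. The cause of these shifts was not tested.

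Leaving out doublets marked within each library was not run, since the caller did not work on ABX; a limit shared by both libraries was used, added after seeing the data, and moved no value beyond its interval. Alternatives that left too few positive cells could not give a value. No paired analysis was possible because each condition has 1 library. Small classes are limited by their few mitotic-high cells.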

Other observations

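Outside the 34 members and the 196 other cell cycle genes, 6739 genes had at least 200 UMIs in mitotic-positive cells and were compared with the level expected from other cells of the same class and library. The 10 most raised genes were Ankle1 (262-fold), Hist1h3c (136-fold), Igkv6-23 (132-fold), Cep55 (118-fold), Kif14 (83.5-fold), Pif1 (73.5-fold), Stil (72.8-fold), Rad54b (50.5-fold), Mxd3 (45.3-fold) and Prr11 (41.6-fold). Cep55, Kif14 and Prr11 act in or near cell division, Stil in centriole duplication, and Pif1 and Rad54b on DNA. Ankle1, a nuclease gene, had a UMI in 35.8% of mitotic-high cells and 0.121% of other cells. Prr11 had one in 60.3% and 0.890%. Igkv6-23, an immunoglobulin light chain segment, had a UMI in 0% of mitotic-high cells, so that its place in the list came from cells with 3 to 7 mitotic genes.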
